A study of Drosophila melanogaster with 20 samples.

Results

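The thin filament regulators followed here were the probe sets annotated to 4 Drosophila genes: TpnC73F, which encodes a troponin C, up (upheld), which encodes troponin T, Tm2, which encodes a tropomyosin, and tmod, which encodes tropomodulin. They were 7 of the 13966 probe sets left on the array without its control probe sets and stood for 4 of 10844 named genes. TpnC73F and Tm2 each had 1 probe set, 143623_at and 143427_at. The gene up had 2, of which 142555_at had the higher mean and 151619_at the lower, and tmod had 3, namely 152898_at with the highest mean, 150900_at and 150899_at. The gene table used for names places TpnC73F on chromosome arm 3L, up on the X and both Tm2 and tmod on 3R. All 7 passed the filter that left out the 25% of probe sets with the lowest mean log2 value, although the means of tmod 150900_at and 150899_at were at percentiles 31.1 and 27.1.

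Messenger RNA was measured in whole embryos of 5 genotypes, with 4 arrays per genotype. The control was the stock dp cn a px sp, which carries visible marker mutations, and the hypomorphic alleles mef2 65, mef2 424 and mef2 113 came from mutagenesis of that stock. The null carried mef2 22.21, whose stock of origin the labels do not give, so the null may differ from the control in more than mef2. Whether the mutagenised hypomorphs also differ from the control outside mef2 was not tested. Mutant embryos were sorted by lack of a fluorescent balancer, CyO P(Gal4-twi)P(UAS-2eGFP). After 30 min collections, embryos were aged 6.5 h at 25 °C and pools of 150 were taken at mid stage 13, when differentiation of the body wall muscles begins. The series design ranks the genotypes by Mef2 level, with the control first and then 65, 424, 113 and the null. Separate collections for the 4 arrays are not stated in the labels, and the p-values therefore measure only how these arrays vary, in part perhaps for technical reasons.

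In striated muscle, myosin heads pull on thin filaments of actin. Tropomyosin lies along the filament and hides the sites that myosin binds. The troponin complex sits on tropomyosin: troponin C binds calcium, troponin I holds the filament in its inhibited state, and troponin T ties the complex to tropomyosin. Tropomodulin caps the slowly growing pointed end and so limits the length of the filament. In vertebrates, tropomodulins also cap actin filaments of cells other than muscle. Mef2 is a MADS-box transcription factor required for muscle differentiation in the fly, and the comparison of alleles asks how the level of each gene relates to the level of Mef2. Mef2 itself has no named probe set and was not analysed here. In RNA from whole embryos, fewer muscle cells and less RNA per cell cannot be told apart.

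The 3 genes of the troponin and tropomyosin complex fell along the stated order of Mef2 level, and the brightest tmod probe set did not. For TpnC73F that order held only as far as 113. Signals are MAS5 values on a linear scale, and those under the filter level of 9.29 are low enough that they were given no order among themselves. TpnC73F had lost most of its signal in 65, the mildest allele. For up and Tm2 the fall from the control was called in 424, 113 and the null. The brightest tmod probe set was slightly higher than control in all 4 mutants. On the dimmer tmod probe sets no change from the control was called, and the mean of 150900_at was lower than control in all 4.

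**Figure D1:**
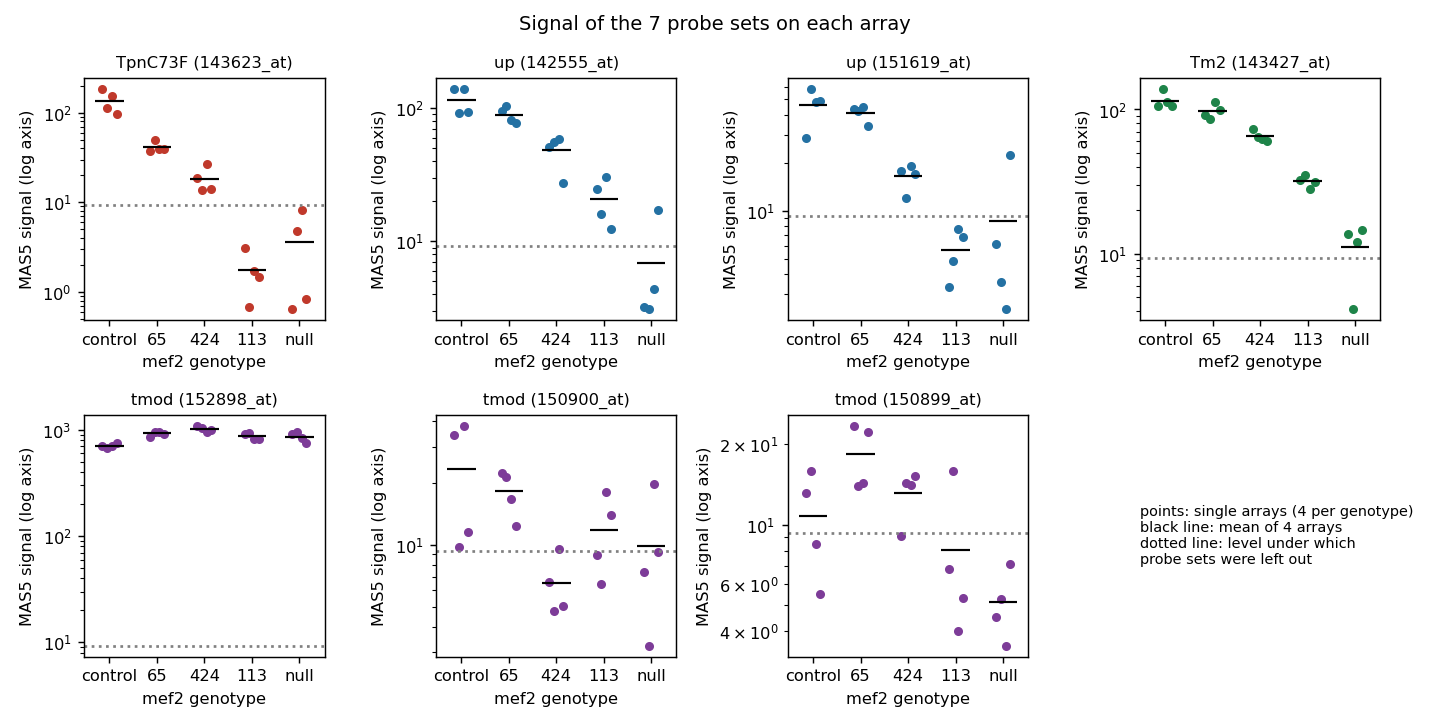
MAS5 signal (log axis) of each of the 7 probe sets on each of the 20 arrays, by mef2 genotype. Points are arrays, black lines are means of 4 arrays and the dotted line is the filter level of 9.29. The means of TpnC73F, up and Tm2 step down from the control to 113, and from 113 to the null only those of up 142555_at and Tm2 do, while tmod 152898_at lies between 675 and 1081 on every array.

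TpnC73F encodes a troponin C isoform, the calcium sensor of the complex. In the control its signals were 182, 113, 154 and 97.9 in replicates 1 to 4, and in 65 they were 37.7, 49.2, 39.5 and 39.1. In 424 the signals were 18.9, 13.7, 26.5 and 14.3. The control, 65 and 424 arrays thus formed 3 ranges that did not touch, for which no share over all probe sets was computed. Every 65 array lay under every control array, as for 5.04% of all probe sets tested. In 113 the values were 3.11, 0.675, 1.72 and 1.48, and in the null 0.643, 4.82, 8.32 and 0.824. All 113 and null arrays lay under the filter level. All 16 mutant arrays were lower than all 4 control arrays, which held for 1.41% of all probe sets. As a share of the control mean the signal was 30.2% ± 3.84 in 65 and 13.4% ± 4.31 in 424 (mean ± SD, n = 4 each), against a spread of the control of 28.0%. It was 1.28% ± 0.74 in 113 and 2.67% ± 2.67 in the null.

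All 4 alleles lowered TpnC73F by the limma test across 10474 probe sets on log2(signal + 16), with Benjamini-Hochberg adjustment. The log2 change was -1.38 ± 0.18 (SE) in 65 (adjusted p = 1.60e-05), -2.14 in 424 (adjusted p = 1.22e-08), -3.07 in 113 and -2.94 in the null. Over all probe sets tested, 2.81% were called lower in 65, 4.74% in 424, 3.58% in 113 and 9.57% in the null, and 0.945% were called lower in all 4. Ordered from the largest fall, the change of TpnC73F ranked 24 of 10474 in 65, 13 in 424, 2 in 113 and 6 in the null. Because the 113 and null signals were under the filter level, the size there depends on the pseudocount: it was -5.68 and -5.23 with 1, and -1.59 and -1.55 with 64. Within single hybridisation days the change in 65 was -1.74 and -1.62, and in the null it lay between -3.57 and -2.64. When the fluidics module of the arrays was a block, the change in 65 was -1.16 (adjusted p = 0.156, where the alternatives ranged down to 6.28e-07).

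The gene up encodes troponin T, which links the complex to tropomyosin. On 142555_at the control signals were 139, 92.2, 139 and 94.0, and those of 65 were 94.9, 105, 81.2 and 77.0, so 2 of the 4 arrays of 65 lay under the lowest control array and 2 overlapped. The 424 arrays read 51.6, 55.9, 58.3 and 27.4. Every 424 array was lower than every control array, as for 7.4% of all probe sets. Every 424 array was also lower than every 65 array, for which no share was computed. The 113 arrays read 24.9, 16.1, 30.7 and 12.3, and the null arrays 3.20, 3.10, 4.37 and 17.1. All 113 and all null arrays lay under the control, as for 6.15% and 10.4% of all probe sets. The last null array stood inside the range of 113, and the other null arrays were under the filter level. The share of the control mean was 77.2% ± 11.1 in 65, 41.7% ± 12.2 in 424, 18.1% ± 7.18 in 113 and 5.99% ± 5.86 in the null.

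The change of up on this probe set was not called in 65, at -0.31 ± 0.21 (SE, adjusted p = 0.539, 95% interval -0.74 to 0.12). It was called in 424 at -1.05 (adjusted p = 0.00155), in 113 at -1.84 (adjusted p = 1.59e-06) and in the null at -2.54 (adjusted p = 2.17e-09). Both up and Tm2 were called lower in 424, 113 and the null, as were 1.33% of all probe sets. Within the 4 hybridisation days the change of up in the null lay between -3.01 and -1.73, and in 424 between -1.34 and -0.59. When the fluidics module was a block the change in 424 was -1.11 (adjusted p = 0.313, against a lowest of 0.000154 over the alternatives). The null value depends on the pseudocount, with -4.16 at 1 and -1.34 at 64. The dimmer probe set, 151619_at, ran the same way: it kept 89.5% ± 10.7 of the control mean in 65, 35.9% ± 6.85 in 424, 12.4% ± 4.33 in 113 and 18.8% ± 20.3 in the null. Its log2 change was called in 424 (-0.91), 113 (-1.5) and the null (-1.37) and not in 65 (-0.10, adjusted p = 0.894). Its null signals were 6.14, 3.57, 2.40 and 22.4, and replicate 4 was again the highest. The call of 151619_at in 424 was lost with a pseudocount of 1 and with the module as a block (adjusted p up to 0.126, from 0.00117 over the alternatives). Between the up probe sets the change differed most in the null, by -1.17 (exact permutation p = 0.0286, adjusted p = 0.229 over 16 tests between probe sets of one gene).

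Tm2 encodes one of the muscle tropomyosins of the fly. Its control signals were 105, 138, 112 and 106, and those of 65 were 91.8, 86.2, 112 and 99.9. The ranges overlapped through a single 65 array, with the other 3 under the lowest control. The 424 arrays read 73.1, 64.4, 62.6 and 60.1, the 113 arrays 32.6, 35.2, 27.9 and 31.4, and the null arrays 13.7, 4.15, 12.0 and 14.7. From 65 down no 2 neighbouring genotypes overlapped, for which no share over all probe sets was computed. All 424, 113 and null arrays lay under the control, as for 7.4%, 6.15% and 10.4% of all probe sets. The share of the control mean was 84.7% ± 9.90 in 65, 56.4% ± 4.88 in 424, 27.6% ± 2.6 in 113 and 9.67% ± 4.16 in the null.

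Tm2 fell in 424, with a log2 change of -0.69 (adjusted p = 0.00155), in 113, with -1.45, and in the null, with -2.29 ± 0.14 (SE, adjusted p = 8.49e-12). It was not called in 65, at -0.21 (adjusted p = 0.531, 95% interval -0.49 to 0.08). Within hybridisation days it changed by -2.93 to -1.99 in the null and by -0.93 to -0.44 in 424. When the fluidics module was a block the change in 424 was -0.58 (adjusted p = 0.489, lowest over the alternatives 0.000157). In the null the size was -3.37 with a pseudocount of 1 and -1.25 with 64.

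**Figure D2:**
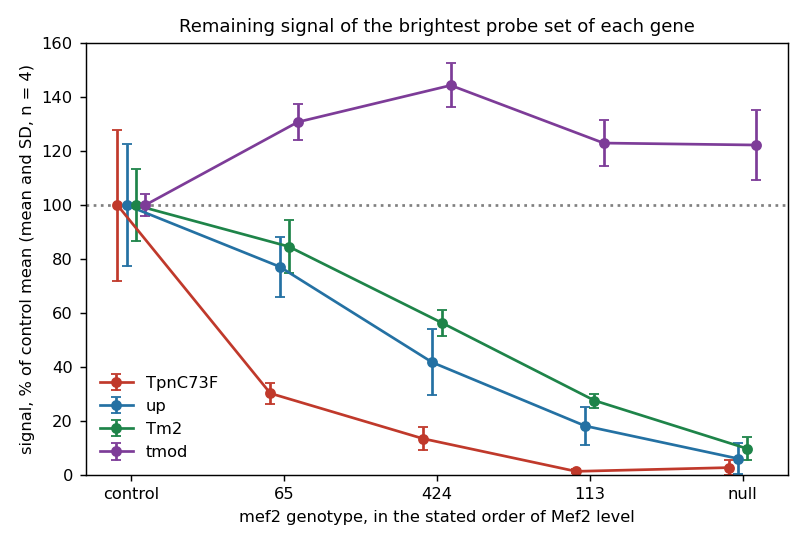
Signal of the brightest probe set of each of the 4 genes as a percent of its control mean, by mef2 genotype in the stated order of Mef2 level (points are means and bars are SD, n = 4). TpnC73F is at 30.2% in 65 where up and Tm2 are at 77.2% and 84.7%, and tmod is between 122.3% and 144.5% in the mutants.

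On its brightest probe set the pointed-end cap tmod went the other way. On 152898_at the control arrays read 696, 675, 705 and 745. The arrays of 65 read 859, 958, 957 and 918, and those of 424 read 1081, 1046, 948 and 999.9. In 113 the signals were 902.5, 933, 814 and 822, and in the null 917, 954, 831 and 749. All 16 mutant arrays were therefore higher than all 4 control arrays, as were those of 0.936% of all probe sets tested, though the lowest null array was close to the highest control array. The signal was 130.9% ± 6.58 of the control mean in 65, 144.5% ± 8.19 in 424, 123.1% ± 8.41 in 113 and 122.3% ± 13.0 in the null.

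The rise was called in each allele, at 0.38 ± 0.08 (SE) in 65 (adjusted p = 0.00244), 0.52 in 424 (adjusted p = 4.80e-05), 0.29 in 113 (adjusted p = 0.0181) and 0.28 in the null (adjusted p = 0.0114). Over all probe sets, 2.83%, 4.1%, 3.15% and 8.1% were called higher in these comparisons, and 0.84% in all 4. The comparisons share the control arrays, so the 4 calls are not independent. By mean the order of levels was 424, 65, 113, null and control. The neighbours 424 and 65 did not differ by the test (0.14, adjusted p = 0.448), nor did the null and 113 (-0.01, adjusted p = 0.950). Within hybridisation days the null change was 0.39, 0.49, 0.23 and 0.01, and that of 424 lay between 0.42 and 0.62. Without replicate 2 of the null the null change was 0.23 and no longer called (adjusted p = 0.0506). The call in 113 was lost without replicate 1 or 2 of 113 or replicate 2 of the control, at 0.26 to 0.27. When the fluidics module was a block the 4 changes were 0.43, 0.57, 0.34 and 0.30, with adjusted p from 0.0552 in the null to 0.442 in 113.

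On the other tmod probe sets no rise was called. On 150900_at the control signals were spread from 9.77 to 37.7, and the means of the mutants were 77.9% ± 19.7, 28.0% ± 9.44, 50.8% ± 22.2 and 42.4% ± 30.1 of the control mean in 65, 424, 113 and the null. All 4 of the 424 arrays lay under the lowest control array there, as for 7.4% of all probe sets. The change of -0.73 was not called (adjusted p = 0.0578). For tmod 150900_at, 424 minus control, it was called without replicate 2 of the control (-0.91) or replicate 4 (-0.87) and with the day as a block. For tmod 150900_at, null minus control, the change of -0.56 was not called, and was called without replicate 3 of the null (-0.73) or replicate 2 of the control (-0.74). On 150899_at the control signals ran from 5.52 to 15.9. Its means were above the control in 65 and 424, at 172.0% ± 47.0 and 122.6% ± 25.9 of the control mean. They were below it in 113 and the null, at 74.5% ± 50.1 and 47.6% ± 14.2. The log2 changes of 0.37, 0.14, -0.16 and -0.33 in the same order of alleles were not called. Against 152898_at within the same arrays, an exact two-sided permutation test gave no adjusted p under 0.05. Its smallest possible p is 0.0286, so after adjustment over 16 tests a single pair without overlap could not pass, and no likeness of the probe sets is shown. The largest gap was 1.25 on the log2 scale, between 152898_at and 150900_at in 424 (unadjusted p = 0.0286, adjusted p = 0.229). A mean over the 3 tmod probe sets turned the sign in the null, 113 and 424, to -0.20, -0.10 and -0.02, and left 0.21 in 65, with no call. The direction given for tmod is therefore that of 1 probe set. The gene table lists spdo, which is also the symbol of another gene, among the synonyms of tmod, and whether the probe sets read other transcripts was not tested.

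**Figure D3:**
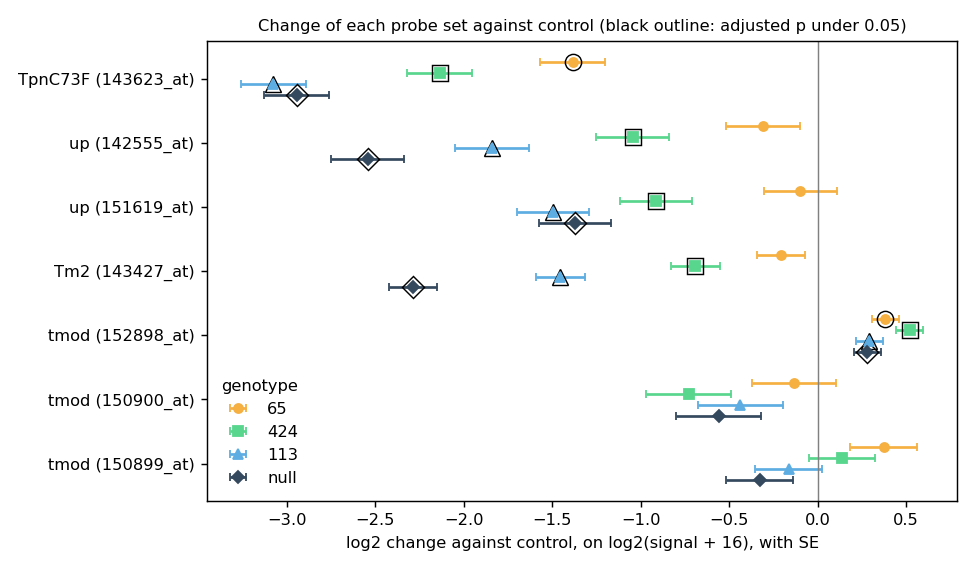
Change of each of the 7 probe sets in each mef2 allele against control, as a difference of log2(signal + 16) with its SE, from limma over 20 arrays. Symbols with a black outline had an adjusted p under 0.05: all 4 alleles for TpnC73F and tmod 152898_at, and 424, 113 and the null for up and Tm2.

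The steps between neighbouring alleles were tested in the same fit. From 65 to 424 the changes were -0.75 for TpnC73F (adjusted p = 0.0158), -0.74 for up 142555_at (adjusted p = 0.0446), -0.81 for up 151619_at (adjusted p = 0.0195) and -0.48 for Tm2 (adjusted p = 0.0459). Those 4 calls compare with 2.64% of all probe sets called lower in that step. They depended on single arrays. The Tm2 call was lost when any one of the 8 arrays was left out, with changes from -0.53 to -0.42. The call for up 142555_at was lost without any one of them except replicate 3 of 424 (-0.82 to -0.56), and that for 151619_at without replicate 1, 2 or 3 of 65 or replicate 2 of 424 (-0.88 to -0.74). The TpnC73F call was lost without replicate 2 of 65 or replicate 2 or 4 of 424 (-0.86 to -0.69). With the hybridisation day as a block the calls for TpnC73F, up 142555_at and Tm2 were lost too, and a module block or a pseudocount of 1 ended all 4. The changes themselves stayed of similar size or grew: in the order above they were -0.75, -0.61, -0.88 and -0.55 with the module as a block and -1.17, -0.92, -1.28 and -0.57 with a pseudocount of 1. Within module 1, which held 2 arrays of each, they were -0.87, -0.89, -0.98 and -0.59. Day 1 and day 3 held both genotypes, and the changes within them were -0.76 and -0.38 for TpnC73F, -0.78 and -0.35 for up 142555_at and -0.24 and -0.63 for Tm2.

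From 424 to 113, TpnC73F fell by 0.94 (adjusted p = 0.00186), Tm2 by 0.76 (adjusted p = 0.000856) and up 142555_at by 0.79 (adjusted p = 0.0212), where 2.77% of all probe sets were called lower. On up 151619_at the change was -0.58 (adjusted p = 0.0968), and on tmod 152898_at it was -0.23 (adjusted p = 0.0801). From 113 to the null, where 7.32% of all probe sets were called lower, Tm2 fell by 0.83 (adjusted p = 0.000135) and up 142555_at by 0.70 (adjusted p = 0.0251). On up 151619_at, with both means under the filter level, the change was 0.12 (adjusted p = 0.775). TpnC73F, already under the filter level in 113, changed by 0.13 (adjusted p = 0.730). The calls for Tm2 in both steps and for TpnC73F from 424 to 113 held without any 1 array. The call for up 142555_at from 424 to 113 was lost without replicate 1, 2 or 3 of 424 or replicate 2 or 4 of 113 (-0.97 to -0.67). It was also lost with a pseudocount of 1 and in a fit to the 424 and 113 arrays alone (adjusted p at most 0.0776). From 113 to the null it was lost without replicate 1 or 3 of 113 or replicate 1, 2 or 3 of the null (-0.89 to -0.58). That call was also lost with a pseudocount of 64 (-0.26), in a fit to the 113 and null arrays alone (-0.70), with the fluidics module as a block (-0.66) and for the mean of both up probe sets (-0.29), with adjusted p from 0.0863 to 0.306. Of 10474 probe sets, 3 were called lower in all 3 steps, or 0.0286%: up 142555_at, Tm2 and 143622_at, which has no single gene name here. In view of the calls lost above, that count holds for the fit to all 20 arrays.

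Whether 2 members changed unequally was tested on the difference between the log2 values of their brightest probe sets on the same array. Of 24 such tests, over 6 pairs of genes and 4 alleles, 18 gave an adjusted p of 0.0381, the value that belongs to the smallest exact two-sided permutation p of 0.0286, reached where the mutant and control arrays do not overlap. In 65 TpnC73F fell more than up, with a gap of -1.08 on the log2 scale, and more than Tm2, with a gap of -1.18. In 424 the corresponding gaps were -1.09 and -1.44, and in 113 they were -1.23 and -1.62. All TpnC73F signals in 113 were under the filter level, so the size of the gaps there is set by the pseudocount. In the null, where signals of TpnC73F and up were mostly under that level too, the gaps were -0.40 (adjusted p = 0.206) and -0.66 (adjusted p = 0.180). Between up and Tm2 no test passed: the gap was -0.10 in 65, -0.35 in 424, -0.39 in 113 and -0.26 in the null, with adjusted p from 0.229 to 0.657, which does not show that the genes changed alike. Each of the 3 genes differed from tmod in all 4 alleles, and the smallest of those gaps was -0.59, for Tm2 in 65. The brightest tmod probe set was above the control on every mutant array, so the tests against tmod in part repeat that rise. Among TpnC73F, up and Tm2, only the tests with TpnC73F in 65, 424 and 113 passed. For pairs of other probe sets no share of tests without overlap was computed.

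**Figure D4:**
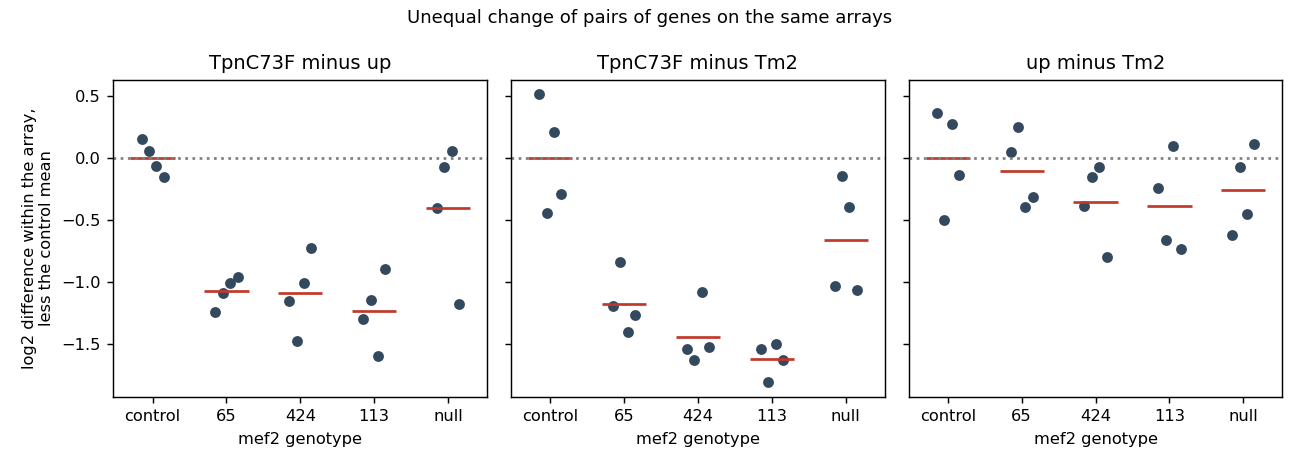
Difference between log2(signal + 16) of the brightest probe sets of a pair of genes on the same array, less the mean of that difference in the control, by mef2 genotype (points are arrays, red lines are means of 4). For TpnC73F minus up and TpnC73F minus Tm2 the arrays of 65, 424 and 113 all lie under the control arrays, and for up minus Tm2 the groups overlap in every allele.

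The remaining parts of the sarcomere give the setting, from lists chosen with earlier results of these data known. The list of troponin and tropomyosin genes had 9 members, of which 5 had a named probe set and 3 were tested, namely TpnC73F, up and Tm2. TpnC41C and TpnC4, troponin C isoforms of adult muscle, were under the filter level of mean signal, with control means of 4.90 and 6.55. TpnC25D, TpnC47D, wupA (troponin I) and Tm1 were not analysed here. Of the muscle actins and thin filament ends, 5 of 9 were tested and in the null 3 were lower, 1 was higher and 1 was not called. The higher gene was tmod. The actins Act79B and Act87E fell in the null by 0.32 and 0.24, and Fhos, a formin that acts in sarcomere assembly, by 0.56. Both actin probe sets are of a kind that can read several members of the actin family. In 113, 424 and 65 none of these was called lower, and tmod was the 1 called higher.

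Of the general actin filament genes, which act in all cells, 8 of 13 were tested. In the null 1 was lower, 1 was higher and 6 were not called, with a median log2 change of -0.03 against -0.01 over all probe sets. Those counts are near the background of 9.57% lower and 8.1% higher in the null. The gene called lower was flr, an actin-interacting protein, which changed by -0.70 in the null, -0.57 in 113 and -0.37 in 424. The capping protein subunit cpb, which acts at the opposite filament end from tmod, was the gene called higher, at 0.32. Of the thick filament genes, 4 of 9 were tested, and 3 were lower in the null, 113 and 424 and 2 in 65. Mlc1, a myosin light chain, changed by -0.82 in 65 and -3.09 in the null. Of the Z-disc genes, 5 of 9 were tested, with 3 lower in the null, 2 in 113, 2 in 424 and 0 in 65. The titin-related gene sls kept near its control level in 65 and 424 (0.01 and -0.16, not called) and fell in 113 (-0.79) and in the null (-1.78). Over the 5 lists, 25 of 49 genes were tested, and 13, 9, 9 and 3 were lower and 2, 1, 1 and 1 higher in the null, 113, 424 and 65. Over all probe sets 9.57%, 3.58%, 4.74% and 2.81% were called lower and 8.1%, 3.15%, 4.1% and 2.83% higher in the same order. The genes followed here are among those counted.

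**Figure D5:**
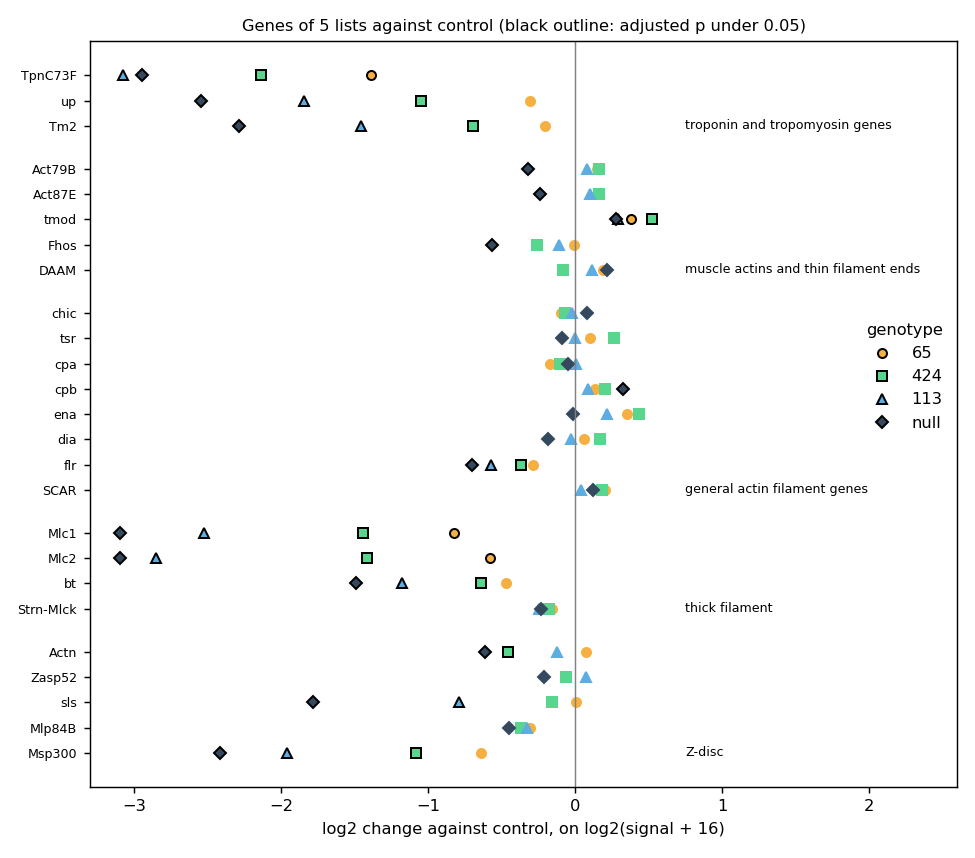
Log2 change against control, on log2(signal + 16), of the 25 tested genes of 5 lists in each mef2 allele, with a black outline where the adjusted p was under 0.05. The troponin and tropomyosin genes, Mlc1, Mlc2 and Msp300 reach below -2 in the null, whereas the general actin filament genes lie between -0.70 and 0.43 in every allele.

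The genes with profiles closest to each member were sought among 8356 others, by the root mean square difference of the 5 genotype means of log2(signal + 16), each gene centred on its own mean. For TpnC73F these were Smyd4-2 at 0.23, CG6972 at 0.30, Mlc1 at 0.34 and jhamt at 0.36. For up they were Tm2 at 0.15, Msp300, a nesprin, at 0.15, jhamt at 0.15 and Mlc1 at 0.23. Those of Tm2 were up at 0.15, Neurochondrin at 0.16, CG14109 at 0.19 and Msp300 at 0.19. Smyd4-2 shared with TpnC73F a fall already in 65, at -1.44, and Neurochondrin shared with Tm2 a level near control in that allele, at 0.00. For tmod they were CG5746 and CG17996 at 0.03 and CG5346 and Polr1H at 0.04, and the distances are small because tmod itself varied little. These distances describe 5 means each.

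Markers of the cell types in the embryo were summed per array beside these results. Of 6 somatic muscle markers 4 had a named probe set (Mlc1, Mlc2, sls and Argk1), and their summed signal ran from 3247 to 3912 in the control, 2631 to 3020 in 65, 1702 to 1738 in 424, 1562 to 1879 in 113 and 733 to 955 in the null. Most of the sum was Argk1, with means of 2767 in the control, 2306 in 65, 1421 in 424, 1608 in 113 and 819.6 in the null. The mean of Mlc1 was 155 in the control and 3.88 in the null, and that of Mlc2 was 514 and 46.3. The sum was lowest in the null, where TpnC73F, up and Tm2 were near or under the filter level. Mhc and Act57B, which also mark somatic muscle, were not analysed here. Visceral muscle, which also builds thin filaments, had 4 of 5 markers measured, and their sum ran from 2190 to 2650 in the control, 1944 to 2484 in 65, 1456 to 2168 in 424, 2026 to 2584 in 113 and 1553 to 1935 in the null. Of these 4, none was called lower in 65, 1 in 424, 2 in 113 and all 4 in the null. Of the 4 somatic muscle markers, 2 were called lower in 65, 3 in 424 and all 4 in 113 and the null. Over all probe sets 2.81%, 4.74%, 3.58% and 9.57% were called lower in 65, 424, 113 and the null. In the same order 2.83%, 4.1%, 3.15% and 8.1% were called higher. The summed signal of 5 of 6 neuron markers was 674 to 763 in the control, 895 to 986 in 65, 793 to 1059 in 424, 802 to 1055 in 113 and 709 to 924 in the null. No neuron marker was called higher in any allele, and 1 was called lower in 424. The 3 glia markers summed to 453 to 530 in the control and 583 to 654 in the null, with 1, 1, 0 and 2 called higher in 65, 424, 113 and the null. Of 6 hemocyte markers 4 passed the filter, and the sum of the list was 653 to 707 in the control, 829 to 984 in 113 and 712 to 806 in the null, with 1 called higher in each of these alleles. Of 4 heart markers 3 had a named probe set. Their sum was 202 to 218 in the control and 234 to 327 in the null, with 1 called higher. Sums thus lay above the control for neuron markers in 65, 424 and 113 and for hemocyte markers in 113 and the null. Those of glia and heart markers did so in the null. The lowest hemocyte sum in the null, 712, was close to the highest control sum, 707. How often sums of other genes separate in this way was not computed. The 3 fat body markers summed to 2169 to 2286 in the control. Their sums were lower in every allele, at 1794 to 2162 in 65, 1658 to 1919 in 424, 1816 to 2101 in 113 and 1387 to 1721 in the null. Of the fat body markers 1 was called lower in 424 and 1 in the null. Neuroblast marker sums overlapped the control in every allele, with 1 marker called higher in 424 and 1 called lower in the null. The 5 epidermis markers summed to 865 to 943 in the control. Their sum was 683 to 881 in 65, 457 to 499 in 424, 832 to 973 in 113 and 774 to 906 in the null. Of the epidermis markers 1, 2, 0 and 2 were called lower in 65, 424, 113 and the null, and 1 higher in the null. The part of these cell types in the changes of the members was not tested.

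Signals on all arrays had been scaled to a 2% trimmed mean of 100.02, and array medians lay between 33.7 and 37.4. Over all probe sets 1850 were called in the null, 705 in 113, 925 in 424 and 590 in 65. In the null 848 of these were higher and 1002 lower, and after centring on array medians 1129 were higher and 821 lower. Each hybridisation day held 1 array of the control, 424, 113 and the null, and days 1 and 3 held 2 arrays each of 65. All control arrays ran on fluidics module 4, which held 2 null arrays and none of 113, 424 or 65, so for these 3 alleles module and genotype are separated only through the other arrays. Within module 4 the null change was -2.89 for TpnC73F, -2.72 for up 142555_at, -2.18 for Tm2 and 0.30 for tmod 152898_at. The fluidics record of replicate 4 of 65 ended early.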

How the data were processed

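RNA was hybridised to DrosGenome1 arrays, 4 per genotype. The authors deposited 1 intensity per probe set and array, which MAS5 produced, per the submitters' processing notes. Its version and the genome build were not given in the sources used here. Coordinates are left out. Other values in the deposited files were run records (module, hybridisation day). The number of arrays limits the precision. Of 14010 probe sets, 44 controls were left out; 12443 had 1 gene symbol, 327 several and 1196 none, and 12394 of the first matched the RefSeq Release 6 table used for names. Symbols are those of the platform annotation, updated through that table.

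Intensities were tested as log2(signal + 16) with limma 3.58.1 in R 4.3.3 (lmFit, eBayes with trend; 1 mean per genotype, 15 residual degrees of freedom and 8.15 prior ones at the median). The 4 contrasts with control and 3 steps were each adjusted by Benjamini-Hochberg over the 10474 probe sets past the filter, with a threshold of 0.05. A fold change on this scale understates the change of low signals. Exact permutation tests used scipy 1.17.1. Figures were drawn with matplotlib 3.10.9. Procedures were tested on simulated data. Alternatives were other pseudocounts, filters, scalings, blocks and probe set rules, and each array left out.

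Named were all probe sets of the 4 genes, genes of the 5 lists, and the 4 closest profiles per gene. The members and lists were chosen with earlier results of these data known. Replicate numbers of control, 424, 113 and the null share a hybridisation day, but same-numbered arrays deviated together only weakly (correlations -0.03 to 0.20), so they were not treated as pairs. 143622_at was named after its values were seen.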

Additional observations from a re-analysis of the deposited data

Results flagged for a closer look

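Of 35 groups of 4 arrays examined, 2 held an array far from the others, and chance alone marks about 1 in 20 groups. TpnC73F read 49.2 in replicate 2 of 65, while the other arrays of 65 lay between 37.7 and 39.5. Without that array the log2 change of TpnC73F 143623_at, 65 minus control, was -1.45 in place of -1.38 and was still called. The signal of up on 142555_at was 17.1 in replicate 4 of the null, against 3.10 to 4.37 on the other null arrays. Without it the change of up 142555_at, null minus control, was -2.73 in place of -2.54 and was still called. On that array 151619_at (22.4) and Tm2 (14.7) were also the highest of the null, TpnC73F read 0.824 and tmod 152898_at (749) was the lowest of the null.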

How the results depend on the processing

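Called falls of TpnC73F, up and Tm2 against control kept their direction under every alternative run, and those in 113 and the null kept their call. With the fluidics module as a block, standard errors were up to 1.99 times larger. Calls against control were then lost for TpnC73F in 65 (-1.16) and, in 424, for up 142555_at (-1.11), up 151619_at and Tm2 (-0.58). Those of tmod 152898_at were lost in 65 (0.43), 424 (0.57), 113 (0.34) and the null (0.30). The same block took the count of probe sets called to 1231 in the null, 96 in 113, 87 in 424, 67 in 65, 239 from 65 to 424, 310 from 424 to 113 and 630 from 113 to the null, where the counts had been 1850, 705, 925, 590, 423, 669 and 1401. The call of tmod 152898_at was lost with quantile normalisation in the null (0.22, adjusted p = 0.0585) and without the trend in 113 (0.29, adjusted p = 0.0598). The mean over the tmod probe sets gave -0.20 in the null, -0.10 in 113, -0.024 in 424 and 0.21 in 65. Beyond the larger standard errors, the cause of the losses under the module block was not tested, nor was that of the other changes. Leaving out 1 array gave 0.23 to 0.34 for tmod 152898_at in the null and 0.26 to 0.32 in 113. With the replicate number as a block (replicate block) 2125, 840, 1176, 692, 526, 854 and 1658 probe sets were called in the same order of comparisons; Tm2 from 65 to 424 lost its call and tmod 150900_at in 424 gained one, and no other call of the 7 probe sets changed. With a 50% filter TpnC73F, up 151619_at and both dim tmod probe sets were not tested. Signals under 9.29 limit what can be said of TpnC73F in 113 and the null.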
